A study of Mus musculus with 6 samples.

Results

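The genes described here are 32 members of the cholesterol synthesis and SREBP pathway, picked by gene name from the 43346 genes of the table of read counts. All 32 were found in the table and all 32 passed the filter on low counts. RNA-seq was done on mouse adult fibroblasts (MAFs), primary cells grown from the ears of female C57BL/6J mice and kept at 3% O2. The control group (3 libraries) had a sham irradiation. Senescent cells received 20 Gy of X-rays and were kept for 21 days (3 libraries). Cells of both groups were given 100 nM dexamethasone, a glucocorticoid that sets the circadian clock in culture, for 2 h and were collected 12 h later, so every library carries this exposure. The labels do not say whether the 3 libraries of a group came from separate cultures or animals, and p-values then measure only the spread between these libraries, which may be technical.

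SREBPs are transcription factors that are made as membrane proteins of the endoplasmic reticulum. The escort protein SCAP carries them to the Golgi for cleavage when sterols are scarce, and INSIG proteins hold SCAP back when sterols are plentiful. SREBF2 acts mainly on the enzymes that build cholesterol from acetyl-CoA through mevalonate, squalene and lanosterol, and SREBF1 mainly on fatty acid synthesis. Oxysterols activate the nuclear receptors called LXRs, which drive the efflux pumps ABCA1 and ABCG1. SREBP activity is set largely by cleavage of the protein, which counts of RNA do not measure.

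Total counts lay between 50288454 and 82229553 per library. Levels are given as CPM, the counts relative to the TMM-scaled library size, and the groups were compared over 17589 genes with edgeR's quasi-likelihood test and Benjamini-Hochberg adjustment, where a gene is called at an adjusted p under 0.05. Markers of fibroblasts had the highest sum of the lists (63700 to 65700 CPM in control and 47900 to 53400 CPM in senescent libraries, 10 genes). Most of it came from *Fn1* (mean 45640 CPM in control and 43840 CPM in senescent libraries). Of the 10 genes, 5 were lower, 3 were higher and 2 were not called. All 6 proliferation genes listed were lower in senescent cells (1490 to 1570 CPM against 41.4 to 49.0 CPM summed). Cartilage markers were also lower, in 6 of 6 genes tested of 7 listed (4840 to 5320 CPM against 265 to 340 CPM). Macrophage markers summed to 5.69 to 6.48 CPM in control and 14.1 to 16.6 CPM in senescent libraries, with 1 of 8 genes at 0 in each group (*C1qb* in control and *C1qa* in senescent libraries). Adipocyte markers summed to 35.2 to 38.9 CPM and 25.4 to 27.7 CPM and came almost wholly from *Fabp4*, since *Adipoq*, *Plin1*, *Cidec* and *Lep* did not exceed 0.227 CPM in any library. Keratinocyte markers (15.9 to 16.6 CPM against 12.2 to 13.6 CPM) and endothelial markers (0.776 to 0.837 CPM against 4.50 to 5.45 CPM) were low in both groups, and the part of any of these cell types in the results was not tested. In bulk RNA, fewer cells of a type and less RNA per cell cannot be told apart.

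Senescent replicate 3 stood apart from the other senescent libraries, and its deviation followed the GC content of the transcripts. Over the 32 genes, its log2 ratio to the mean of senescent replicates 1 and 2 had a Pearson r of -0.897 and a Spearman rho of -0.883 with GC content. Control replicate 1 deviated from the other controls in the same way (r = -0.83, rho = -0.853, n = 32). These are correlations across genes that share their libraries, and genes are not independent replicates. Over 13605 genes with at least 1 CPM, r was -0.796 for senescent replicate 3 and -0.486 for control replicate 1. GC-rich members such as *Mvd*, *Srebf1*, *Fasn* and *Mvk* were lowest in senescent replicate 3, and their fold changes are also given without that library and with a GC term for each library, which was added after seeing the data. The GC term was fitted to deviations from the mean of all libraries, so it also takes up a GC trend that differs between the groups.

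**Figure D1:**
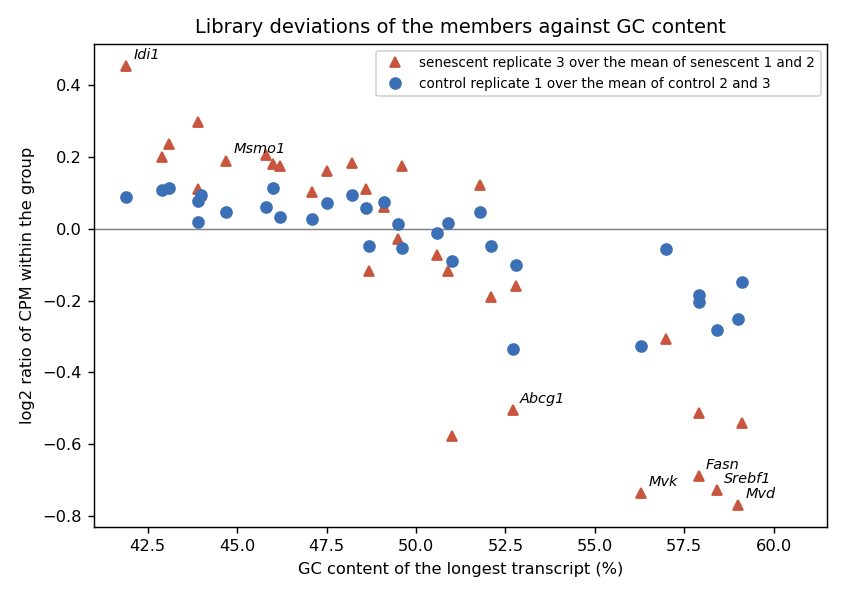
Deviation of senescent replicate 3 (triangles, log2 ratio to the mean of senescent replicates 1 and 2) and of control replicate 1 (circles, log2 ratio to the mean of control replicates 2 and 3) against GC content of the longest transcript in percent, 1 point per gene (n = 32). Both sets of points fall as GC content rises (r = -0.897 and -0.83), and *Mvd*, *Srebf1*, *Mvk* and *Fasn* lie lowest for senescent replicate 3.

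Promoter sequences from RefSeq (GRCm38.p6, the assembly that mm10 names) were found for 25 of the 32 genes, as 33 windows from 250 bases before to 50 bases after a start. *Fdps*, *Stard4*, *Fdft1*, *Scd1*, *Sqle*, *Abcg1* and *Scd2* had no entry. The windows were searched on both strands for TCACNCCAC, a form of the sterol regulatory element (SRE) bound by SREBPs, for CCAAT, the box bound by the cofactor NF-Y, for CACGTG, the E-box bound by the clock factor BMAL1 and its partners, and for TGAGTCA, the AP-1 site. CCAAT was present in 21 of the 33 windows (63.6%), against 37.4% of all 32851 RefSeq windows. The SRE letters were present in 1 of 33 (3.03%, *Hmgcs1*) against 1.24% of all windows. The E-box was present in 7 windows (21.2%, of *Abca1*, *Dhcr7*, *Hsd17b7*, *Insig1*, *Sc5d* and *Scap*) against 7.15%, and the AP-1 site in 2 (6.06%, of *Dhcr7* and *Msmo1*) against 5.2%. The windows of *Scap* overlap and share the same E-box, so that site counts in more than 1 window. Sites of different motifs overlapped in 0 of the 33 windows. A match of letters is a description and does not show binding.

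The 250 bases upstream of the start are printed for 5 genes, the SREBP gene *Srebf2*, the early enzymes *Hmgcs1* and *Mvk*, which were lower in senescent cells, and the late enzymes *Hsd17b7* and *Msmo1*, which were higher. Capitals mark the SRE and the CCAAT boxes, and ATTGG is a CCAAT box on the other strand. Positions are those of GRCm38.p6: *Srebf2* at chr15:82147019-82147268 (plus strand), *Hmgcs1* at chr13:119690101-119690350 (plus strand), *Mvk* at chr5:114444019-114444268 (plus strand), *Hsd17b7* at chr1:169969206-169969455 (minus strand) and *Msmo1* at chr8:64733579-64733828 (minus strand). All run 5′ to 3′ on the strand of the gene.
Srebf2: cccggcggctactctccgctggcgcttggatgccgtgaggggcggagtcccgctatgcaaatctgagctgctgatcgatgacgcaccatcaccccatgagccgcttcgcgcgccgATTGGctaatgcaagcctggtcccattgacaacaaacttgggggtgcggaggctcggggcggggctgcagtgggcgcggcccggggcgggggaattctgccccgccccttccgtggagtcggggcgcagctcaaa
Hmgcs1: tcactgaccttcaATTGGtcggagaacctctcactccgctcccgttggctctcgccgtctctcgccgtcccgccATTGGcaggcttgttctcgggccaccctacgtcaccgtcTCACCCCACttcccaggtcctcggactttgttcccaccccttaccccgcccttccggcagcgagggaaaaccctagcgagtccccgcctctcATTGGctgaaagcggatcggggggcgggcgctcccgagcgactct
Mvk: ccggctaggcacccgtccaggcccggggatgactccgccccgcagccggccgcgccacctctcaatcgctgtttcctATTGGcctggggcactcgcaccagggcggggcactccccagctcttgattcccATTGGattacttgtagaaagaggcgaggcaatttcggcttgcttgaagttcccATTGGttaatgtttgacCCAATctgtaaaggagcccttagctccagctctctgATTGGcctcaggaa
Hsd17b7: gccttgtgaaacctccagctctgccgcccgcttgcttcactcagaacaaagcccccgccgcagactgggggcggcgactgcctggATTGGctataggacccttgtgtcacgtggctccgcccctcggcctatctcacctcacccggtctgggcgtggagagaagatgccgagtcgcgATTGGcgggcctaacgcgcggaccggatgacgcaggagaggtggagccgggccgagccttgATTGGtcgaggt
Msmo1: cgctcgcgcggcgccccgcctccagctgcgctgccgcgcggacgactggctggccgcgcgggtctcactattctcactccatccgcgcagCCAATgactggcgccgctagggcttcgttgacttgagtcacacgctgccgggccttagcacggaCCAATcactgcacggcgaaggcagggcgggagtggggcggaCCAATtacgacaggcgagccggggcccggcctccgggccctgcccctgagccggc
*Srebf2* held 1 CCAAT box, *Mvk* held 5, and *Hmgcs1*, *Hsd17b7* and *Msmo1* held 3 each. The SRE of *Hmgcs1* began 137 bases before the RefSeq start. Bases after that start were not found near the start of a GENCODE M21 transcript of the gene. The span used for counting *Hmgcs1* begins later, at base 119690462. The spans used for *Msmo1* and *Hsd17b7* reach into their windows, so the CCAAT boxes of *Msmo1* and the nearest of *Hsd17b7* lie within them. Of the genes printed, those lower and those higher in senescent cells both carried CCAAT boxes.

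Of the 32 genes, 19 (59.4%) were called lower and 4 (12.5%) higher in senescent cells, and 9 were not called. Over all genes tested, 34.1% were lower and 36.2% were higher. By the limits of the study's methods, an unadjusted p under 0.05 with a change over 2-fold, 8 (25.0%) were lower and 2 (6.25%) were higher, against 12.3% and 17.8% of all genes tested. The study's results text names another p limit for this comparison, which was not used here. The 3 control and the 3 senescent values did not overlap in 26 of the 32 genes (81.2%), and in 75.4% of all genes tested. The median log2 fold change (senescent over control) was -0.58, against 0.0085 over all genes tested. The 4 higher genes, *Hsd17b7*, *Msmo1*, *Sc5d* and *Sqle*, all encode enzymes that act after squalene is made.

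**Figure D2:**
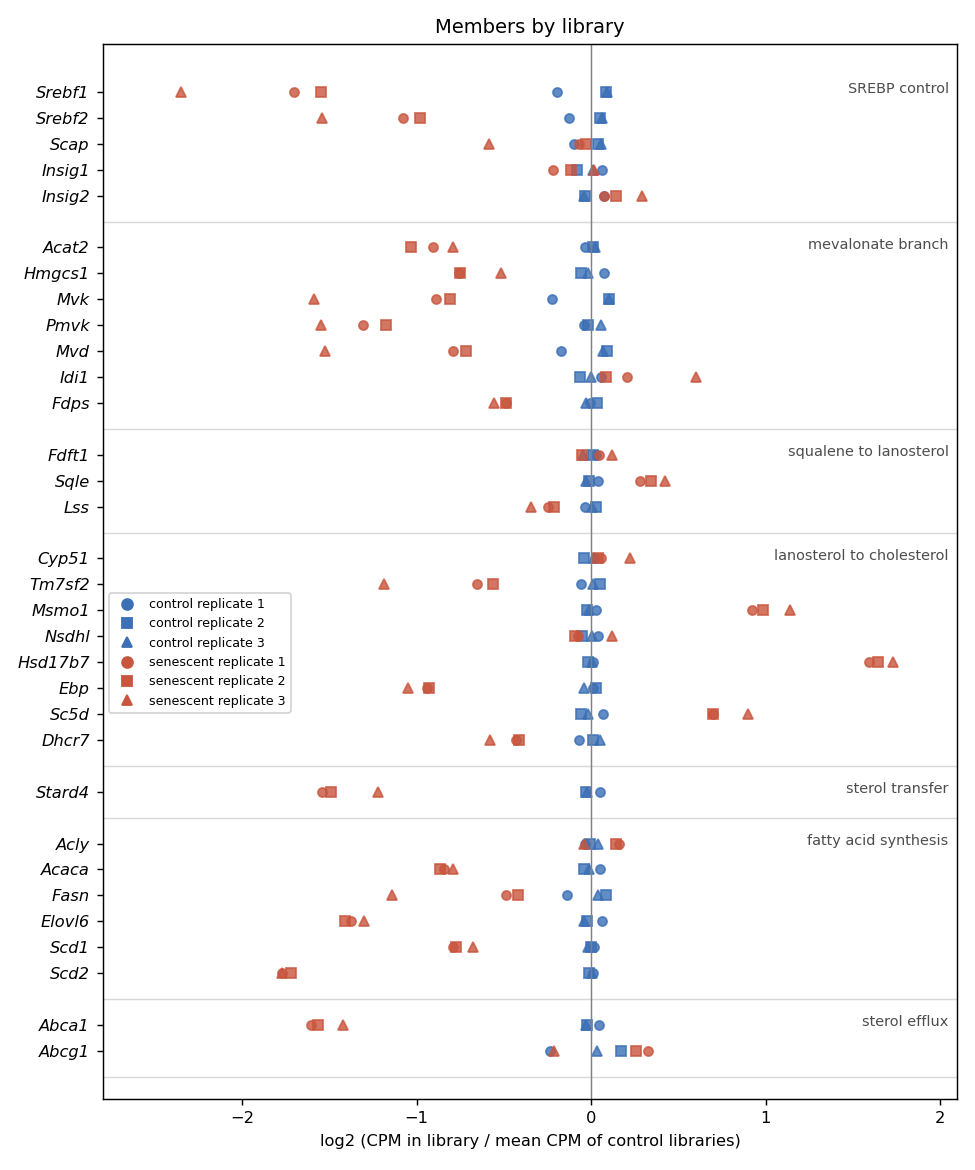
Level of each gene in each library as log2 of its CPM over the mean CPM of the 3 control libraries, with control libraries in blue and senescent libraries in red (circle, square and triangle for replicates 1, 2 and 3), ordered by role. *Srebf1*, *Scd2*, *Stard4* and *Abca1* lie far left of 0 and *Hsd17b7* and *Msmo1* far right in all 3 senescent libraries.

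Both SREBP genes were lower in senescent cells. *Srebf1* (chr11:60199089-60222581, minus strand) had 141.2, 171.0 and 172.1 CPM in control replicates 1 to 3 and 49.63, 55.15 and 31.64 CPM in senescent replicates 1 to 3. Every senescent library lay below every control library. The log2 fold change was -1.83 ± 0.20 (SE, n = 3 and 3, edgeR adjusted p = 8.11e-05), -1.61 without senescent replicate 3 and -1.47 with the GC term. *Srebf2* (chr15:82147266-82205376, plus strand) had 157.8, 178.5 and 180.2 CPM in control and 81.73, 87.12 and 59.14 CPM in senescent libraries. These groups did not overlap either, with a log2 fold change of -1.18 ± 0.14 (edgeR adjusted p = 1.47e-04), -1.02 without senescent replicate 3 and -0.82 with the GC term. The last 109 bases of *Srebf1* overlap *Rai1* on the opposite strand.

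None of the 3 genes that carry or hold back the SREBPs was called over all 6 libraries. *Scap*, the escort, had 65.54, 72.21 and 72.98 CPM in control and 66.94, 68.98 and 46.75 CPM in senescent libraries. Senescent replicates 1 and 2 lay within the control range and replicate 3 below it. Its log2 fold change was -0.21 ± 0.14 (edgeR adjusted p = 0.222) and turned to 0.18 with the GC term (adjusted p = 4.37e-04). *Insig1*, which is itself a target of SREBPs, had 73.52, 66.67 and 71.06 CPM against 60.59, 65.14 and 71.37 CPM, with a log2 fold change of -0.10 ± 0.08 (edgeR adjusted p = 0.271). Without senescent replicate 3 it was called lower (log2 fold change -0.15, adjusted p = 0.00903). *Insig2*, the second retention gene, had 48.21, 44.69 and 44.42 CPM against 48.26, 50.57 and 56.05 CPM. The groups only just separated, with a log2 fold change of 0.17 ± 0.07 (edgeR adjusted p = 0.066), and the gene was called higher under 5 of 12 alternative settings.

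In the mevalonate branch, which builds farnesyl diphosphate from acetyl-CoA, 6 of 7 genes were lower and 1 was not called (median log2 fold change -0.91). *Hmgcs1*, which makes HMG-CoA, had 185.3, 169.0 and 173.6 CPM in control and 104.3, 104.7 and 123.1 CPM in senescent libraries (log2 fold change -0.67 ± 0.08, edgeR adjusted p = 1.59e-04). *Acat2*, the thiolase of the step before, had 46.66, 48.08 and 48.64 CPM against 25.54, 23.36 and 27.63 CPM (log2 fold change -0.91 ± 0.08, edgeR adjusted p = 2.01e-05). All senescent libraries lay below all control libraries for both genes. *Pmvk*, phosphomevalonate kinase, was the most changed of the branch. It had 24.83, 25.20 and 26.48 CPM in control and 10.30, 11.29 and 8.716 CPM in senescent libraries (log2 fold change -1.34 ± 0.10, edgeR adjusted p = 1.35e-05), and fell just short of the 2-fold limit with the GC term (-0.994). *Mvk*, mevalonate kinase, had 26.14, 32.77 and 32.81 CPM against 16.50, 17.43 and 10.18 CPM, with control replicate 1 and senescent replicate 3 lowest in their groups. Its log2 fold change of -1.06 ± 0.20 (edgeR adjusted p = 0.00181) was -0.84 without senescent replicate 3 and -0.75 with the GC term.

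*Mvd*, the decarboxylase that makes isopentenyl diphosphate, had 14.77, 17.73 and 17.43 CPM in control and 9.612, 10.13 and 5.791 CPM in senescent libraries. Its log2 fold change of -0.97 ± 0.20 (edgeR adjusted p = 0.00297) was -0.74 without senescent replicate 3 and -0.60 with the GC term. *Mvd* lies wholly within the span of *Gm20388* on the opposite strand, so its counts are uncertain where counting did not use strand, a setting not given in the sources used here. *Scap*, *Insig2*, *Lss* and *Acaca* also overlap annotated genes on the opposite strand and carry an uncertainty of this kind. Those overlapping genes had at most 55 counts in any library, against at least 4907 for *Gm20388*. The same uncertainty holds for *Srebf1*, where *Rai1* had 2135 to 3725 counts, and for *Fdft1*, where *Ctsb* had 32732 to 122750 counts. *Fdps*, farnesyl diphosphate synthase, had 137.5, 141.7 and 135.4 CPM against 98.66, 98.73 and 93.89 CPM, a narrow spread in both groups (log2 fold change -0.51 ± 0.05, edgeR adjusted p = 7.0e-05). *Idi1*, the isomerase between *Mvd* and *Fdps*, was the exception of the branch, with 20.38, 18.70 and 19.59 CPM in control and 22.54, 20.75 and 29.65 CPM in senescent libraries. Its senescent libraries lay above the controls, with replicate 3 far above the others. The log2 fold change was 0.32 ± 0.13 (edgeR adjusted p = 0.0638) and 0.15 without senescent replicate 3, and the gene was called higher under 6 of 12 alternative settings.

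In the group labelled squalene to lanosterol, which also holds the enzyme that makes squalene, the 3 genes went 3 ways. *Fdft1*, squalene synthase, had 71.32, 70.50 and 67.66 CPM in control and 72.17, 67.36 and 75.88 CPM in senescent libraries. The groups overlapped (log2 fold change 0.04 ± 0.06, edgeR adjusted p = 0.584), and the last 767 bases of the gene overlap *Ctsb* on the opposite strand. *Ctsb* had 32732 to 40090 counts in control and 83714 to 122750 in senescent libraries, against 3312 to 6408 for *Fdft1* over all libraries. The counts of *Fdft1* are thus uncertain where counting did not use strand. *Sqle*, squalene epoxidase, a rate-limiting step, had 62.96, 60.93 and 60.13 CPM against 74.48, 77.96 and 82.30 CPM, higher in every senescent library (log2 fold change 0.35 ± 0.06, edgeR adjusted p = 9.64e-04). *Lss*, lanosterol synthase, had 69.61, 72.54 and 71.40 CPM against 60.07, 61.43 and 56.00 CPM, lower in every senescent library (log2 fold change -0.27 ± 0.06, edgeR adjusted p = 0.00394).

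From lanosterol to cholesterol 3 of 8 genes were higher, 3 were lower and 2 were not called. *Hsd17b7* (chr1:169949535-169969241, minus strand), the 3-ketosteroid reductase that completes removal of the methyl groups at carbon 4, had 20.77, 20.31 and 20.70 CPM in control and 62.05, 64.48 and 68.30 CPM in senescent libraries. It was 3.15-fold higher by the ratio of the group means, with a log2 fold change of 1.66 ± 0.06 (edgeR adjusted p = 2.29e-07), 1.63 without senescent replicate 3 and 1.6 with the GC term. *Msmo1* (chr8:64718139-64733792, minus strand), the oxidase that starts the same removal, had 64.44, 62.17 and 62.68 CPM against 119.4, 124.7 and 139.3 CPM. Every senescent library was above every control library, with a log2 fold change of 1.02 ± 0.07 (edgeR adjusted p = 6.67e-06). It fell short of the 2-fold limit without senescent replicate 3 (0.96) and with the GC term (0.99). *Nsdhl*, the dehydrogenase that acts between these enzymes, had 44.24, 41.57 and 43.27 CPM against 40.90, 40.38 and 46.85 CPM, and its groups overlapped (log2 fold change -0.01 ± 0.07, edgeR adjusted p = 0.913). The genes of the same demethylation sequence thus ranged from overlapping groups to a 3.15-fold ratio.

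*Sc5d*, the sterol C5-desaturase, had 64.56, 59.09 and 60.78 CPM in control and 100.0, 99.84 and 114.8 CPM in senescent libraries (log2 fold change 0.77 ± 0.07, edgeR adjusted p = 4.47e-05). The enzymes on either side of it in the pathway were lower. *Ebp*, the sterol isomerase before it, had 38.32, 38.76 and 37.08 CPM against 19.82, 20.02 and 18.37 CPM (log2 fold change -0.97 ± 0.07, edgeR adjusted p = 5.78e-06). *Dhcr7*, the reductase after it, had 33.89, 35.85 and 36.86 CPM against 26.35, 26.66 and 23.75 CPM (log2 fold change -0.47 ± 0.07, edgeR adjusted p = 6.03e-04, and -0.29 with the GC term). None of the 3 genes overlapped between the groups. *Tm7sf2*, a sterol C14-reductase, had 12.47, 13.47 and 13.08 CPM against 8.259, 8.804 and 5.720 CPM (log2 fold change -0.78 ± 0.16, edgeR adjusted p = 0.00247) and shares 532 bases with *Vps51* on the same strand. *Cyp51*, the lanosterol C14-demethylase, had 110.6, 106.2 and 110.2 CPM against 113.6, 112.2 and 127.4 CPM, with the senescent libraries just above the controls (log2 fold change 0.11 ± 0.07, edgeR adjusted p = 0.161).

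**Figure D3:**
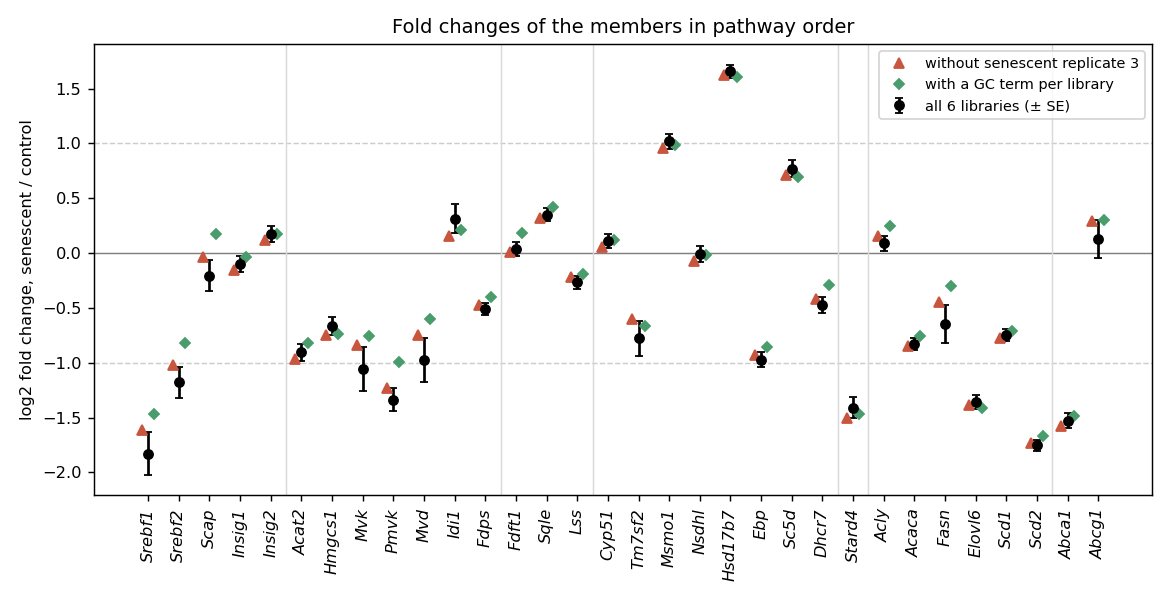
Log2 fold change (senescent over control) of each gene in pathway order, from all 6 libraries with its SE (black circles), without senescent replicate 3 (triangles) and with a GC term for each library (diamonds), with dashed lines at 2-fold. *Hsd17b7* stays near 1.6 in all 3 fits, while *Srebf1*, *Srebf2*, *Scap*, *Mvk*, *Mvd* and *Fasn* move upwards with the GC term.

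Because neighbouring enzymes differed in direction, the summed levels were set side by side. The 7 mevalonate branch genes summed to 455.6, 453.2 and 453.9 CPM in control and 287.5, 286.4 and 299.0 CPM in senescent libraries. The 8 genes from lanosterol to cholesterol summed to 389.3, 377.4 and 384.6 CPM and 490.4, 497.1 and 544.4 CPM. The late sum over the early sum was 0.845 ± 0.0111 (SD, n = 3) in control and 1.75 ± 0.0597 in senescent libraries, so the early genes held more of the counts in control and the late genes more in senescent cells. The 18 enzyme genes of the whole route to cholesterol summed to 1049, 1035 and 1038 CPM against 984.6, 990.3 and 1058 CPM, and these groups overlapped (log2 ratio of the means -0.04, and 0.036 with library size scaling). A sum weighs a gene by its counts, so *Hmgcs1*, *Fdps* and *Cyp51* weigh more than *Mvd* or *Tm7sf2*, and no test was made on the sums.

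**Figure D4:**
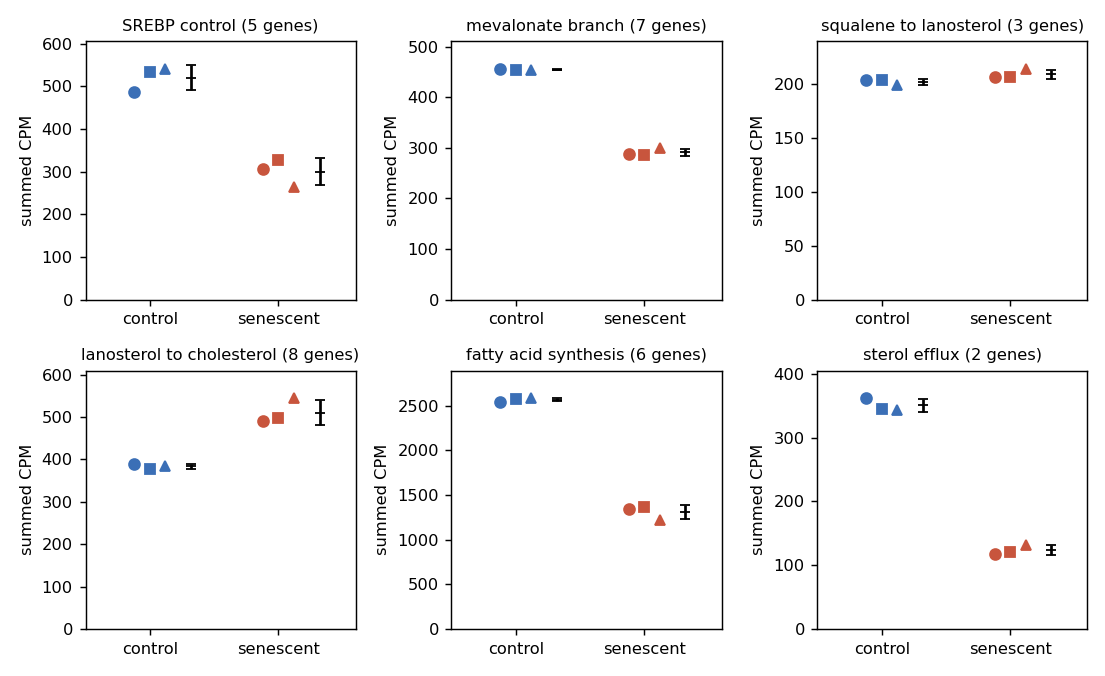
Summed TMM-scaled CPM of the genes of each role in each library (circle, square and triangle for replicates 1, 2 and 3), with the mean and SD of each group beside the points (n = 3). The sums of the mevalonate branch, fatty acid synthesis, SREBP control and sterol efflux are lower in all senescent libraries. The sum of the lanosterol to cholesterol genes is higher (490.4 to 544.4 CPM against 377.4 to 389.3 CPM), though single genes of this role went both ways.

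*Stard4*, a cytosolic carrier that moves cholesterol between membranes and is a target of SREBPs, was lower in senescent cells. It had 72.70, 68.89 and 68.93 CPM in control and 24.07, 24.95 and 30.13 CPM in senescent libraries, a 2.66-fold ratio of the means (log2 fold change -1.41 ± 0.09, edgeR adjusted p = 5.14e-06). The groups were far apart, and senescent replicate 3 was the highest of its group.

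Of the 6 fatty acid synthesis genes 5 were lower and 1 was not called (median log2 fold change -0.79). *Scd2* (chr19:44293676-44306864, plus strand), a stearoyl-CoA desaturase that makes monounsaturated fatty acids, had 1185, 1167 and 1183 CPM in control and 345.7, 357.7 and 345.1 CPM in senescent libraries. The spread was small in both groups, and the log2 fold change was -1.75 ± 0.05 (edgeR adjusted p = 6.14e-08). *Scd1* (chr19:44394451-44407709, minus strand), its neighbouring homolog, had 455.3, 449.3 and 444.2 CPM against 260.1, 263.0 and 280.9 CPM (log2 fold change -0.75 ± 0.05, edgeR adjusted p = 8.88e-06). The desaturase genes are similar in sequence, and how reads shared between them were counted is not given in the sources used here. *Elovl6*, which lengthens palmitate to stearate, had 73.88, 69.73 and 68.69 CPM against 27.28, 26.58 and 28.74 CPM, again with no overlap (log2 fold change -1.36 ± 0.06, edgeR adjusted p = 6.09e-07). *Acaca*, acetyl-CoA carboxylase, had 174.3, 163.8 and 167.0 CPM against 93.97, 92.47 and 97.20 CPM (log2 fold change -0.83 ± 0.05, edgeR adjusted p = 4.91e-06).

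*Fasn*, fatty acid synthase, had 368.7, 431.2 and 418.2 CPM in control and 289.7, 304.1 and 184.1 CPM in senescent libraries, with senescent replicate 3 far below the others. Its log2 fold change was -0.65 ± 0.18 (edgeR adjusted p = 0.0113), -0.44 without that library and -0.30 with the GC term, and without the filter on low counts it was not called (adjusted p = 0.067). *Acly*, ATP citrate lyase, which supplies cytosolic acetyl-CoA to both branches, had 286.2, 291.0 and 300.6 CPM against 326.8, 323.3 and 284.7 CPM. Senescent replicates 1 and 2 lay above the controls and replicate 3 below them (log2 fold change 0.09 ± 0.07, edgeR adjusted p = 0.259), and without replicate 3 the gene was called higher (0.16, adjusted p = 7.03e-04). The makeup of the group shifted with this. *Scd2* held 46.6%, 45.4% and 45.8% of the summed CPM of the 6 genes in control and 25.7%, 26.2% and 28.3% in senescent libraries. *Acly* held 11.3%, 11.3% and 11.6% against 24.3%, 23.6% and 23.3%.

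Of the efflux pumps, *Abca1* (chr4:53030787-53159895, minus strand), which loads cholesterol onto apolipoproteins, had 359.2, 342.0 and 340.9 CPM in control and 114.0, 117.5 and 129.5 CPM in senescent libraries. It was 2.89-fold lower by the ratio of the means (log2 fold change -1.53 ± 0.07, edgeR adjusted p = 5.18e-07). *Abcg1*, which loads lipoprotein particles, was low throughout, with 2.546, 3.363 and 3.065 CPM against 3.751, 3.570 and 2.582 CPM. Its groups overlapped (log2 fold change 0.13 ± 0.17, edgeR adjusted p = 0.518).

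Within each library, related genes were compared as the log2 ratio of their counts, in which the scaling of the library cancels. These are 4 ratios, each tested by an exact two-sided permutation test over libraries, for which 3 against 3 cannot give a p under 0.1. *Srebf2* over *Srebf1* was 0.16, 0.06 and 0.07 in control and 0.72, 0.66 and 0.90 in senescent libraries, a difference of 0.66. *Scd1* over *Scd2* was -1.38, -1.38 and -1.41 in control and -0.41, -0.44 and -0.30 in senescent libraries, a difference of 1.01. Both ratios moved towards the member that changed less. *Insig1* over *Insig2* was 0.61, 0.58 and 0.68 against 0.33, 0.37 and 0.35, a difference of -0.27. *Abca1* over *Abcg1* was 7.14, 6.67 and 6.80 against 4.93, 5.04 and 5.65, a difference of -1.66. The groups did not overlap in any of the 4 ratios, and each exact permutation p was 0.1, also after adjustment over the 4.

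**Figure D5:**
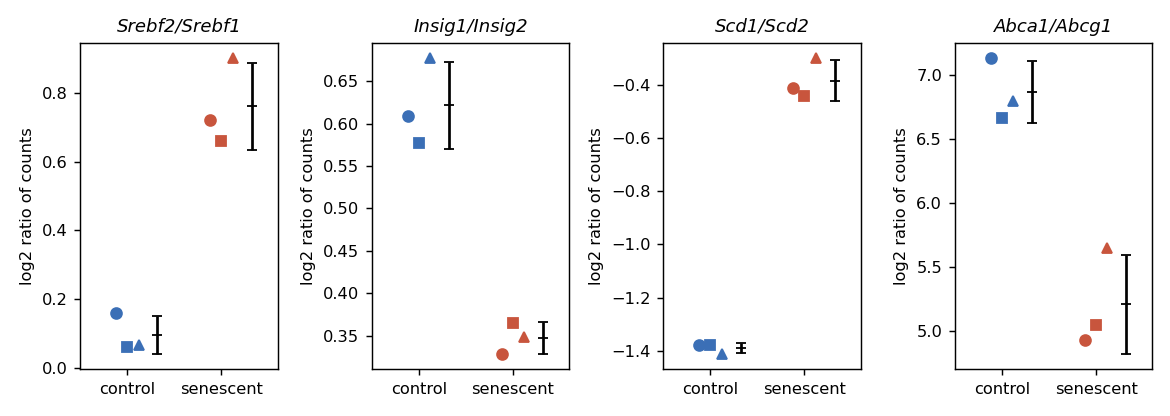
Log2 ratio of the counts of related genes in each library (circle, square and triangle for replicates 1, 2 and 3), with the mean and SD of each group beside the points (n = 3), and axes that do not start at 0. Control and senescent libraries separate in all 4 ratios, by 0.66 for *Srebf2* over *Srebf1* and by 1.01 for *Scd1* over *Scd2*.

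Levels of different genes were compared per length, as RPKM computed from the counts and the lengths in the table. *Scd2* was the highest of the 32 genes in control cells (216 ± 1.82 RPKM, SD, n = 3), followed by *Fdps* (111 ± 2.61 RPKM), *Scd1* (93.0 ± 1.15 RPKM), *Acly* (55.4 ± 1.39 RPKM) and *Hmgcs1* (54.4 ± 2.60 RPKM). *Acly* and *Hmgcs1* did not differ beyond their spread. In senescent cells the order was *Fdps* (78.2 ± 2.23 RPKM), *Scd2* (64.1 ± 1.30 RPKM), *Acly* (59.0 ± 4.42 RPKM), *Scd1* (55.4 ± 2.33 RPKM) and *Sc5d* (45.1 ± 3.68 RPKM), where *Acly* and *Scd1* lay within their spread. The places of *Fdps* and *Sc5d* depend on the length used. The table gives *Fdps* a length of 0.295 of its summed exons in GENCODE M21, and with the latter its level was 32.8 RPKM in control and 23.1 RPKM in senescent cells. With summed exons *Sc5d* had 21.6 RPKM in senescent cells, below *Cyp51* (26.7 RPKM), *Hmgcs1* (24.1 RPKM) and *Fasn* (23.7 RPKM). By the lengths of the table, *Srebf1* went from place 9 to place 21 and *Abca1* from 8 to 18, while *Hsd17b7* went from 30 to 17 and *Msmo1* from 25 to 11. *Abcg1* was lowest in both groups (0.736 ± 0.102 and 0.812 ± 0.155 RPKM).

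Beyond these members, 71 further genes of sterol and fatty acid metabolism were followed, all of which passed the filter. Of these 38 (53.5%) were lower and 19 (26.8%) higher (median log2 fold change -0.25), against 34.1% and 36.2% of all genes tested. Among LXR and oxysterol genes 8 of 10 were lower and 2 were higher. Of the genes of the LXRs themselves, *Nr1h3* (log2 fold change -0.75) was called lower under 12 of 12 alternative settings and *Nr1h2* (-0.57) under 6 of 12. *Cyp27a1* (-0.36) was called lower under 8 of 12 and not with the GC term. *Lpcat3*, a phospholipid acyltransferase driven by LXRs, had 103.1, 99.01 and 103.3 CPM in control and 34.16, 32.62 and 30.71 CPM in senescent libraries (log2 fold change -1.65 ± 0.06, edgeR adjusted p = 2.31e-07). *Rxra*, the partner receptor of LXRs, fell from 154 ± 9.49 to 76.9 ± 11.4 CPM (SD, n = 3), and *Cyp7b1*, an oxysterol hydroxylase, from 3.56 ± 0.165 to 1.73 ± 0.299 CPM. The higher genes were *Nr1d1*, a clock repressor (0.66), and *Ch25h*, which makes 25-hydroxycholesterol. *Ch25h* had 0.481, 0.870 and 0.981 CPM against 10.21, 9.511 and 6.679 CPM (log2 fold change 3.49 ± 0.26, edgeR adjusted p = 1.02e-05).

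Among fatty acid partners 14 of 22 were lower and 5 were higher. *Fads2*, the delta-6 desaturase of polyunsaturated fatty acids, had 112.9, 114.0 and 115.2 CPM in control and 24.92, 24.81 and 20.75 CPM in senescent libraries (log2 fold change -2.28 ± 0.08, edgeR adjusted p = 2.06e-07). *Fads1*, the delta-5 desaturase, had 233.5, 232.8 and 230.2 CPM against 78.03, 78.29 and 78.99 CPM (log2 fold change -1.57 ± 0.05, edgeR adjusted p = 1.03e-07). Like *Scd1* and *Scd2*, both fatty acid desaturase genes were lower in every senescent library. Among genes of sterol uptake, transport and storage 6 of 16 were lower and 4 higher. *Soat1*, which esterifies cholesterol for storage, had 101.9, 95.14 and 97.02 CPM against 190.4, 193.6 and 219.2 CPM (log2 fold change 1.04 ± 0.07, edgeR adjusted p = 6.57e-06, and 0.98 without senescent replicate 3). *Scarb1*, a receptor for high-density lipoprotein, had 82.34, 86.53 and 89.34 CPM against 30.91, 28.41 and 23.33 CPM (log2 fold change -1.64 ± 0.10, edgeR adjusted p = 4.31e-06). *Gramd1c*, a sterol transfer protein of membrane contact sites, had a log2 fold change of -1.39.

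Of 12 remaining sterol and isoprenoid enzymes 6 were lower and 4 higher. Those higher were *Ggps1*, geranylgeranyl diphosphate synthase (log2 fold change 0.82), *Nus1*, a subunit of the dolichol synthase (0.68), and *Pdss1* and *Pdss2*, which build the ubiquinone side chain (0.39 and 0.35). The lower ones included *Acat1*, the mitochondrial thiolase (-0.96), and *Fntb*, a subunit of the protein farnesyltransferase (-0.33, and -0.07 and not called with the GC term). Of genes on the same isoprenoid branches, *Dhdds*, the partner of *Nus1* (-0.10), and *Pggt1b*, a subunit of a protein prenyltransferase (0.14), were not called. Of 11 SREBP activation genes and cofactors 4 were lower and 4 higher. *Mbtps1*, the protease that makes the first cut in SREBPs, was lower (-0.59) and *Mbtps2*, which makes the next, was higher (0.43). Of the NF-Y subunits, *Nfyc* was lower (-0.80) and *Nfyb* higher (0.37, called under 11 of 12 alternative settings). *Nfya* was called lower (-0.17), but under only 5 of 12 alternative settings and not with the GC term (-0.05). The genes named for these last lists, and *Nr1d1*, *Nr1h2*, *Nr1h3* and *Cyp27a1*, changed less than 2-fold and were chosen after their values were seen.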

How the data were processed

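Per the study's methods, the authors ran MAPRSeq, in which STAR aligned the reads of polyadenylated RNA (mm10), and counted them on genes with Subread. Library preparation was strand-specific, and the strand setting of the counting is not given in the sources used here. The deposited values are raw counts per gene, with gene lengths. Groups came from the labels. Counts were filtered with filterByExpr, scaled by TMM and compared with edgeR 4.0.16 (quasi-likelihood test, robust, R 4.3.3), group as the only term, two-sided, with Benjamini-Hochberg adjustment over 17589 genes. The SE is the log2 fold change over the square root of F. On simulated data with the same groups (16150 genes) 200 of 200 genes changed 2-fold were recovered, with 18 false calls. The simulated libraries shared a fixed spread and had no deviation with GC content. The simulation therefore does not test calls under the deviations of senescent replicate 3 and control replicate 1. The members and lists were chosen with earlier results of these data known. All members are named, and of the other genes those called with a log2 fold change over 1 and a mean of at least 1 CPM, apart from genes marked as chosen later. The alternatives were RLE or library size scaling, no filter, at least 10 counts in every library, DESeq2 1.42.0, the replicate number as a block and each library left out. A GC term per library (GENCODE M21 transcripts, GC for 98.0% of genes) and leaving out control replicate 1 with senescent replicate 3 were chosen after seeing the data. Permutation tests used scipy 1.17.1. Total counts per library are given above. The ChIP-seq and the other assays of the study were not analysed here.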

Additional observations from a re-analysis of the deposited data

How the results depend on the processing

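Over 12 alternatives, 25 of the 32 genes kept their direction and call in every setting, and of 384 values 362 did so, 14 gained a call, 1 lost it (*Fasn*, without the filter) and 7 turned direction. Those 7 were all of *Nsdhl* (log2 fold change -0.01), which was 0.0102 with RLE scaling, 0.0104 with DESeq2, 0.0676 with library size scaling and 0.0384 with at least 10 counts in every library, and ran from -0.0739 to 0.0373 with each library left out (adjusted p of at least 0.45 by edgeR or DESeq2 in each of the turned values). Members called higher numbered 4, but 7 with library size scaling, 8 without control replicate 1 and senescent replicate 3 together and 10 with the GC term, and 4 to 7 with each library left out, 7 being without senescent replicate 3. The genes gaining a call lay between -0.15 and 0.43 (log2). Members lower ran from 18 to 20 over the 12 alternatives. Over 2-fold, 1 to 2 were higher and 7 to 9 lower with each library left out, 1 was higher without both libraries, and 1 was higher and 5 lower with the GC term, under which *Scap* turned to 0.18. The GC term also moved the median of all genes by 0.0879, against 0.0044 without both libraries. How much of the added higher calls came with this shared shift was not tested. Library size scaling moved the median of all genes by 0.0776 and the log2 ratio of summed levels of the mevalonate branch to -0.565, of squalene to lanosterol to 0.13, of all 18 enzymes to 0.036 (from -0.04) and of all members to -0.64. Deviations of same-numbered libraries from their group means correlated at -0.571, 0.443 and -0.406 over 12379 genes. Those of control replicate 1 and senescent replicate 3, which both followed GC content, correlated at 0.674. Because the deviations carry this GC pattern, they cannot show whether the numbers pair the libraries. With the replicate number as a block 4 members were higher and 19 lower, 2 and 9 over 2-fold, and 18 and 36 of the 71 further genes. The cause of the moved values was not tested. Depth did not limit the members, since the lowest, *Abcg1*, had at least 127 counts in every library.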
